A study of Mus musculus with 12 samples.

Results

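Whole-tissue RNA of the hippocampus was compared with that of the ileum in mice that lack FIRE, the fms-intronic regulatory element, an enhancer inside Csf1r. The arrays were chosen by their tissue and genotype labels alone: 3 of FIRE -/- hippocampus (A09, B09 and H07) and 3 of FIRE -/- ileum with Peyer's patches (F09, G09 and H09), together 6 of the 12 arrays of the series. The other 6 arrays, 3 of each tissue from FIRE +/+ mice, enter only where the tissue difference is set beside that of mice with the enhancer. All mice were 6 weeks old, of strain C57BL/6J/CBA and perfused with saline, and each FIRE -/- group held 1 male and 2 females by its labels. The deletion is constitutive, so every cell of both tissues carries it, and it goes back to 1 founder male, so the FIRE -/- mice are 1 line. Each ileum sample was a piece of gut wall chosen to hold a Peyer's patch, so it mixes mucosa, muscle and lymphoid follicle in proportions that were not set. No label ties an ileum sample to the mouse of a hippocampus sample. The arrays were Affymetrix Mouse Gene ST, and all values are the authors' log2 RMA signals, 1 for each transcript cluster, the probe set of a gene. All 21218 clusters with a single gene symbol were tested, for 18820 genes, and a cluster was called where the adjusted p of limma, a linear model that shares the spread between clusters, was under 0.05.

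Macrophages depend on CSF1R, the receptor for the growth factors CSF1 and IL-34. The brain's parenchymal macrophages are the microglia, which settle before birth and renew themselves in place, and which are nearly the only leukocytes of healthy perfused brain tissue. The gut wall holds one of the largest macrophage populations of the body, renewed in large part from blood monocytes, and its Peyer's patches add B cell follicles, T cells and dendritic cells. A leukocyte transcript that is read in a FIRE -/- ileum but not in a FIRE -/- hippocampus therefore comes from a mixed population. With whole-tissue RNA fewer cells of a type and less RNA per cell cannot be told apart.

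The tissue labels were borne out by the transcripts of each tissue. All 12 measured neuron genes and all 7 oligodendrocyte genes were higher in the hippocampus, and all 18 ileal epithelium genes and all 7 smooth muscle genes were higher in the ileum. Arrays of 1 tissue correlated across clusters with r from 0.985 to 0.996 and arrays of different tissues with r from 0.730 to 0.743. Several arrays stood apart from the rest of their group. B09 is labelled female but read as male: Xist, the X-inactivation RNA, was at 2.44 there against 7.15 on the female H07, and the Y-linked Kdm5d was at 6.44 against 3.29. F09 carried far more lymphoid transcript than the other ileum arrays, with a mean over 21 B cell genes of 7.50 against 4.53 on G09 and 4.24 on H09. A09 had a mean of 6.42 over the smooth muscle genes against 5.12 on B09 and 5.39 on H07, and H07 had a mean of 4.20 over the ileal epithelium genes against 3.68 and 3.67. The counts over all leukocyte genes are therefore also given without F09 and without B09, and those of single lists only where the change is large.

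Csf1r, the gene whose enhancer is deleted, separated the tissues. Its signal was 3.58, 3.69 and 3.65 on the hippocampus arrays A09, B09 and H07 and 6.44, 7.53 and 6.86 on the ileum arrays F09, G09 and H09. Every ileum array lay far above every hippocampus array. The difference, ileum minus hippocampus, was 3.30 (standard error 0.25, 95% confidence interval 2.71 to 3.89, limma adjusted p = 1.28e-05), which is 9.87-fold. It ranged from 3.01 without G09 to 3.56 without F09.

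The ligands of CSF1R ran the other way. Il34, the ligand made by neurons, was at 7.65, 7.43 and 7.55 in hippocampus and 5.13, 5.39 and 5.26 in ileum, a difference of -2.29 (standard error 0.11, limma adjusted p = 8.32e-07). Csf1 was at 7.16, 7.33 and 7.11 against 6.37, 6.87 and 6.51, a difference of -0.62 (standard error 0.15, adjusted p = 0.00711). Both ligands were thus higher in the FIRE -/- hippocampus, where Csf1r was lower, without overlap between the tissues. The Il34 difference was also present in FIRE +/+ mice (-2.54), where the Csf1r mean was higher in the hippocampus (8.27) than in the ileum (7.66). Of the 14 genes of the growth factor axis, 8 were higher in the ileum and 4 in the hippocampus. Of all clusters 32.0% and 29.7% were so called, and the 4 are close to the second share. The receptor chains for GM-CSF were among the first, with differences of 2.99 for Csf2rb, 2.12 for Csf2rb2 and 0.996 for Csf2ra. Flt3l, the dendritic cell growth factor, was higher in the ileum (0.97), while its receptor gene Flt3 (-0.77) and the stem cell factor receptor gene Kit (-1.15) were higher in the hippocampus. Kitl, the ligand of KIT, had a difference of 1.36. Csf3r, the G-CSF receptor of granulocytes, was low in both tissues, between 2.74 and 2.82 in the hippocampus and between 3.18 and 3.46 in the ileum.

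Over 13 lists of leukocyte genes, 306 of 334 listed genes were analysed, and 211 of them were higher in the FIRE -/- ileum, 20 were higher in the FIRE -/- hippocampus and 75 were not called. Over all clusters the tissues differ widely: 61.7% were called, 32.0% higher in the ileum and 29.7% higher in the hippocampus, which is the background to these counts. The groups did not overlap for 228 of the 306 genes with the ileum above and for 22 with the hippocampus above, where 36.6% and 32.2% of all clusters were so placed. The median difference of the leukocyte genes was 1.48, against 0.05 over all genes. Called and at least 2-fold higher in the ileum were 173 of them, and at least 8-fold higher 53, against 16.7% and 4.73% of all clusters. Without F09, 221 leukocyte genes were higher in the ileum and 24 in the hippocampus, and without B09 these counts were 190 and 19.

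**Figure D1:**
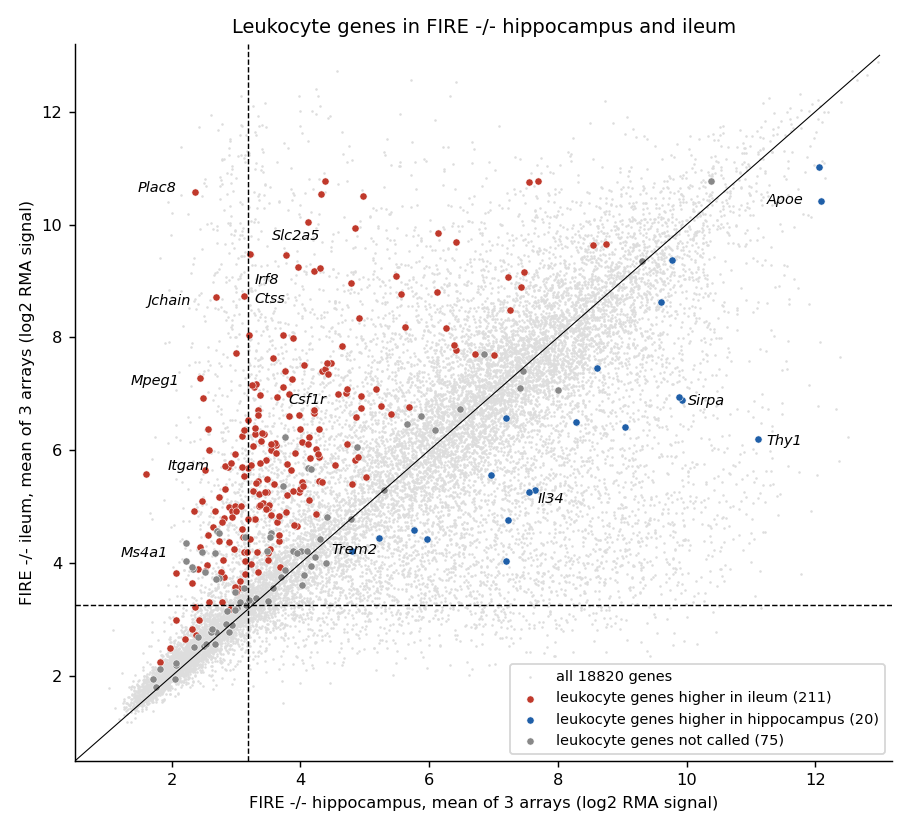
Mean log2 RMA signal of each gene over the 3 FIRE -/- hippocampus arrays (horizontal axis) and the 3 FIRE -/- ileum arrays (vertical axis), with 18820 genes in grey and 306 leukocyte genes coloured by their limma call. The solid line marks equal signal and the dashed lines the mean background limit of each tissue; 211 leukocyte genes were called above the line of equal signal and 20 below it.

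To ask which of these transcripts were near background in the hippocampus, each array was given a limit from genes that are silent outside the nose. The limit was the 95th percentile of 1180 clusters of odorant and vomeronasal receptors and lay between 3.15 and 3.34 on the 6 arrays. A gene was near background in a tissue where all 3 arrays were at or below their limits and above background where all 3 exceeded them. In the FIRE -/- hippocampus 87 of the 306 leukocyte genes were near background, 42 on both sides of the limit and 177 above it. For the FIRE -/- ileum these counts were 27, 31 and 248. As background to them, 4097 of all 18820 genes were near background on the FIRE -/- hippocampus arrays, and 13810 were above it. On the FIRE -/- ileum arrays 3860 of all genes were near background and 13726 above it. The limit is strict and differs from the true floor of any one gene's probes: Csf1r, at 3.58 to 3.69 in the FIRE -/- hippocampus, exceeded it on all 3 arrays, but was below the 99th percentile of the same receptors, which lay between 3.87 and 4.19.

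Near background in the FIRE -/- hippocampus and above it in the FIRE -/- ileum were 38 leukocyte genes, 12.4% of those measured, where 450 of all genes, 2.39%, were in this class. The limma fit called 37 of the 38 higher in the ileum, as it did 447 of the 450. The class already requires low hippocampus and higher ileum values, so these calls add no separate support. Without F09 the class held 41 genes and without B09 43. Leaving out an array can only keep or enlarge the class, since every array of a group must pass. Where the hippocampus is near background, a difference of signals depends on the floor of the gene's probes, so the fold is also given as a lower bound, the ileum mean against the limits of the hippocampus arrays. Plac8, a gene of monocytes, plasmacytoid dendritic cells and gut epithelium, was at 2.11, 2.24 and 2.75 in hippocampus and 10.99, 10.62 and 10.14 in ileum. Its difference was 8.22 (standard error 0.25, limma adjusted p = 7.83e-08), at least 169-fold against the limits. Jchain, the joining chain of secreted IgA, was at 2.65, 2.50 and 2.90 against 8.04, 9.23 and 8.86, a difference of 6.03 (standard error 0.29, adjusted p = 8.74e-07), at least 46.1-fold. Mpeg1, which encodes the pore-forming perforin-2 of macrophages, was at 2.35, 2.73 and 2.23 against 6.94, 7.73 and 7.19, a difference of 4.85 (standard error 0.22, adjusted p = 7.04e-07), at least 17.2-fold. That none of these 3 genes overlapped between tissues follows from how the class was defined. With the limit at the 99th percentile the class held 78 leukocyte genes (25.5%, against 4.48% of all genes), of which 18 were among the 38, because the higher limit admits more hippocampus values and refuses the weaker ileum values. At the 90th percentile it held 19 genes (6.21%, against 1.22%).

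**Figure D2:**
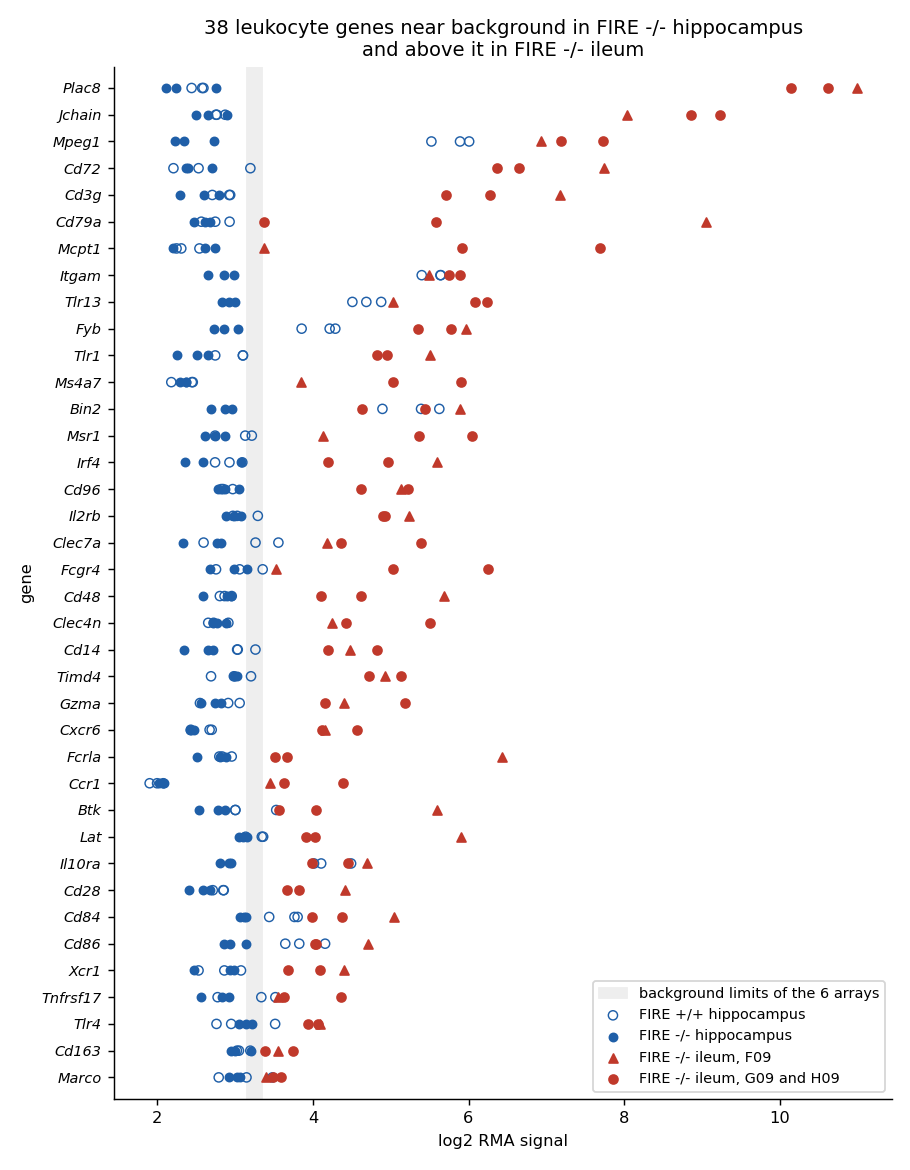
Log2 RMA signal on each array for the 38 leukocyte genes near background on all 3 FIRE -/- hippocampus arrays and above background on all 3 FIRE -/- ileum arrays, ordered by their difference. The grey band spans the limits of the 6 arrays; open circles are the FIRE +/+ hippocampus arrays, which lie above background for 8 genes such as Mpeg1 and Itgam, and triangles are F09.

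The FIRE +/+ hippocampus divides these 38 genes. Above background there, and so read in a hippocampus with the enhancer, were 8: Mpeg1, Itgam, Tlr13, Fyb, Bin2, Cd86, Cd84 and Il10ra. Itgam, which encodes CD11b, was at 2.99, 2.85 and 2.66 in the FIRE -/- hippocampus, 5.50, 5.76 and 5.89 in the FIRE -/- ileum, and had a mean of 5.56 ± 0.14 (SD, n = 3) in the FIRE +/+ hippocampus. Tlr13, a receptor for bacterial ribosomal RNA, was at 2.998, 2.93 and 2.83 against 5.03, 6.23 and 6.08, and Bin2, a membrane-bending protein of leukocytes, at 2.69, 2.96 and 2.87 against 5.89, 5.44 and 4.64. Near background in the hippocampus of both genotypes were 19 of the 38, among them Plac8, Jchain, the T cell receptor subunit gene Cd3g and the macrophage genes Timd4 and Ms4a7. The other 11 had FIRE +/+ hippocampus arrays on both sides of the limit. Of the 450 genes in this class over all genes, 14 were above background in the FIRE +/+ hippocampus and 348 were near it. The division moves with the limit: of the 78 genes in the class at the 99th percentile, 26 were above it in the FIRE +/+ hippocampus, among them Csf1r, Ctss, Selplg, Ptprc and Tyrobp, and 43 were near background there.

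Short stretches of promoter are shown for the 6 genes of this class with the largest signal differences whose 250 bases before the RefSeq start hold the letters GAGGAA on either strand, the core that the leukocyte factor PU.1 is known to bind. Capitals mark those letters or their reverse complement, and each stretch runs 5′ to 3′ on the gene's strand, in build GRCm38.p6.
Plac8 (chr5:100572206-100572260, minus strand): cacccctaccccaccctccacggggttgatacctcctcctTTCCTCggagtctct
Cd72 (chr4:43454628-43454713, minus strand): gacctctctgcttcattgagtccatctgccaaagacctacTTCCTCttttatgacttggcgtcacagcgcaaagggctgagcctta
Cd79a (chr7:24897317-24897402, plus strand): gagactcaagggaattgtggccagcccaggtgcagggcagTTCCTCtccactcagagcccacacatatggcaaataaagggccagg
Itgam (chr7:128062585-128062639, plus strand): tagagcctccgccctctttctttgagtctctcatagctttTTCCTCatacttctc
Tlr13 (chrX:106143152-106143237, plus strand): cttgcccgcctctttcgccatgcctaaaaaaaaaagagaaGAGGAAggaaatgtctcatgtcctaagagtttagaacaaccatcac
Fyb (chr15:6579724-6579809, plus strand): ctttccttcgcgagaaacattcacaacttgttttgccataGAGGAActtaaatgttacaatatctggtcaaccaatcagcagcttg
In Plac8 and Itgam the letters lie 15 bases before the start. They are common: 28.3% of all 32851 RefSeq promoter windows, each of 250 bases before and 50 after a start, hold them, so a match marks no binding site. Windows were held for 237 of the 306 leukocyte genes (77.5%), under the 80% set for a comparison of shares between classes, and such a comparison would be void.

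The shared macrophage genes, those of macrophages in any tissue, were about as one-sided (92.4% higher in the ileum) as the genes common to all leukocytes (92.1%). Of 66 measured, 61 were higher in the ileum and 2 in the hippocampus, with a median difference of 1.96, and 58 and 1 were so called without B09. Ctss, the cathepsin that trims the MHC class II invariant chain, was at 3.28, 2.72 and 3.37 in hippocampus and 8.63, 8.64 and 8.93 in ileum, a difference of 5.61 (standard error 0.19, limma adjusted p = 1.29e-07). Irf8, a transcription factor of monocytes and microglia, was at 3.78, 4.11 and 3.98 against 9.38, 9.20 and 9.14, a difference of 5.29 (standard error 0.12, adjusted p = 2.35e-08). Spi1, which encodes PU.1, was at 3.004, 3.25 and 3.13 against 6.63, 6.71 and 5.77, a difference of 3.24 (standard error 0.24). For these genes every hippocampus array lay below every ileum array. The hippocampus arrays of Ctss and Spi1 lay on both sides of the background limit, so the size of their differences depends on the floor of their probes. Lyz2 (5.54) is a myeloid gene by repute, yet its lysozyme is close in sequence to that of Paneth cells, and C1qa (3.08), Tyrobp (2.32), Cd33 (2.39), Cd14 (1.93) and Tlr1 (2.63) were higher in the ileum as well.

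Genes of the same list did not all follow. Trem2, the lipid receptor that signals through TYROBP, was at 4.49, 4.21 and 4.22 in hippocampus and 4.36, 4.31 and 4.61 in ileum. The tissues overlapped, with a difference of 0.12 (standard error 0.13, 95% confidence interval -0.18 to 0.42, limma adjusted p = 0.448). Apoe (-1.67), which astrocytes make in quantity, was higher in the hippocampus, as was Gpnmb (-1.54, standard error 0.43, adjusted p = 0.0162), though without B09 the adjusted p of Gpnmb was 0.0547. Cx3cr1, the fractalkine receptor, was at 4.32, 3.77 and 3.91 against 4.89, 5.92 and 5.16, a smaller difference of 1.32 (standard error 0.27, adjusted p = 0.00372).

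The microglia-enriched genes, picked because other macrophages express them less, were divided. Of 27 measured, 15 were higher in the ileum (55.6%, against 31.5% of all genes), 4 in the hippocampus and 8 were not called. Their median difference was 0.87. Slc2a5 was at 3.69, 3.77 and 3.87 in hippocampus and 9.85, 9.63 and 8.91 in ileum, a difference of 5.69 (standard error 0.23, limma adjusted p = 3.49e-07). It encodes the fructose transporter GLUT5, which microglia share with the absorptive cells of the small intestine. Tmem119 was at 4.87, 4.46 and 4.83 against 6.41, 7.67 and 7.18, and P2ry13, a receptor for ADP, at 3.91, 3.75 and 3.74 against 5.71, 6.39 and 5.17. Siglech was close to the limit in the hippocampus, at 3.45, 3.19 and 3.36, and only slightly higher in the ileum, at 4.16, 4.39 and 4.04. P2ry12, at 3.59, 3.62 and 3.50 against 3.12, 4.11 and 3.47, did not differ by the test (difference -0.01, standard error 0.23, 95% confidence interval -0.55 to 0.54), and its sign turned without A09, B09, H09 or F09, with values from 0.00 to 0.22. Gpr34 was near background in both tissues, with no array above 2.23. The 4 genes higher in the hippocampus are also expressed by neurons or astrocytes: Bhlhe41 (-3.15), Sall1 (-1.18), Cst3 (-1.04) and Adgrg1 (-0.98).

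Markers of gut macrophages that the study names were mostly higher in the ileum. Adgre1, which encodes F4/80, was at 3.39, 3.57 and 3.43 in hippocampus and 4.74, 6.76 and 5.98 in ileum, a difference of 2.36 (standard error 0.45, limma adjusted p = 0.00229). Timd4, which encodes the phosphatidylserine receptor TIM4 of long-lived gut macrophages, was at 2.99, 3.03 and 2.99 against 4.92, 5.13 and 4.73, a difference of 1.92 (standard error 0.12, adjusted p = 3.73e-06). Both were separated between tissues, Adgre1 with the widest spread among the ileum arrays and its lowest value on F09. Itgax (CD11c) had a difference of 3.10, Cd4 of 2.47, Mertk of 1.46 and Siglec1 (CD169) of 0.77. Sirpa was the exception, at 9.92, 9.86 and 9.89 against 6.93, 7.25 and 6.63, a difference of -2.95 (standard error 0.16, adjusted p = 1.59e-06), and neurons are known to express it strongly. Of 23 border and tissue macrophage genes, 16 were higher in the ileum (69.6%, against 31.5% of all genes), 7 were not called and none (0) was higher in the hippocampus. In the FIRE -/- hippocampus 16 of the 23 were above background and 6 near it, and the FIRE +/+ hippocampus gave the same counts. Among the 6 were Ms4a7, at 2.37, 2.29 and 2.36 against 3.85, 5.90 and 5.03, and Clec4n, at 2.88, 2.71 and 2.76 against 4.25, 5.50 and 4.43. Lyve1 was at 4.36, 4.59 and 4.35 against 6.88, 7.72 and 7.43, and lymphatic endothelium expresses it too. Mrc1, the mannose receptor, was at 4.26, 4.34 and 3.80 against 4.44, 5.49 and 5.43, with a difference of 0.98 (adjusted p = 0.0207) that was not called without H07 (0.82, adjusted p = 0.074), without G09 (0.80, adjusted p = 0.0661) or without H09 (0.83, adjusted p = 0.0668).

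Genes common to all leukocytes were mostly higher in the ileum. Of 38 measured, 35 were higher in the ileum and 2 in the hippocampus, with a median difference of 2.48, or 2.09 without F09. Ptprc, which encodes CD45, was at 3.79, 3.69 and 3.72 in hippocampus and 8.44, 6.67 and 6.26 in ileum, a difference of 3.39 (standard error 0.50, limma adjusted p = 0.000626). Cd53 was at 3.18, 3.32 and 3.46 against 8.60, 6.72 and 6.20, and Cd52 at 3.28, 3.08 and 2.66 against 8.99, 7.48 and 6.68. Every hippocampus array lay below every ileum array for these genes. F09 was the highest ileum array for 35 of the 38, where it was so for 5964 of all 18820 genes. Near background in the hippocampus were 5 of the list: Fyb, an adaptor of integrin signalling, Cd48, Il10ra, Cd84 and Btk. The actin-binding Coro1a, at 8.12, 7.88 and 8.02 against 8.43, 6.80 and 6.00, was the 1 gene of the list not called (-0.93, adjusted p = 0.174), and without F09 it was higher in the hippocampus (-1.61, adjusted p = 0.000811). The 2 genes higher in the hippocampus were Il16 (-2.45), whose long form is a neuronal scaffold protein, and Cd47 (-0.40), which nearly all cells carry.

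**Figure D3:**
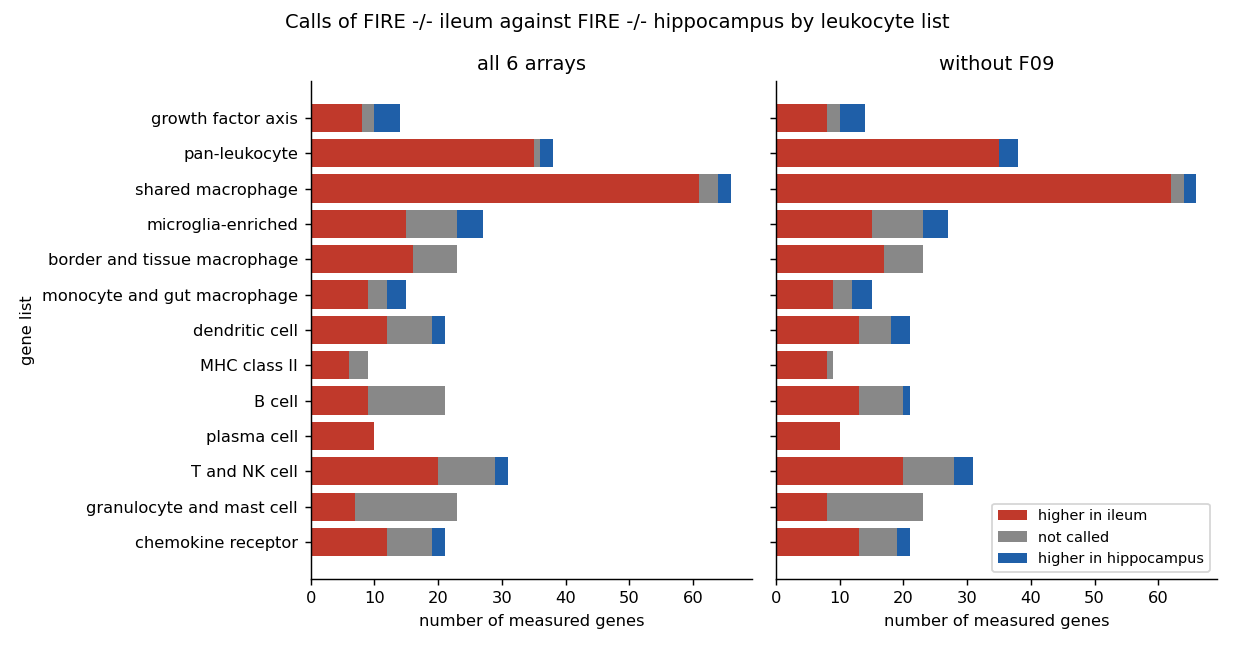
Number of measured genes of each leukocyte list that limma called higher in the FIRE -/- ileum, higher in the FIRE -/- hippocampus or neither, with all 6 arrays (left) and without F09 (right). The shared macrophage list has 61 of 66 genes higher in the ileum, and the B cell list goes from 9 to 13 of 21 when F09 is left out.

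Among the antigen presentation genes of MHC class II, H2-Aa and Cd74 differed widely between the tissues. H2-Aa was at 3.48, 3.17 and 3.003 in hippocampus and 10.04, 9.60 and 8.82 in ileum, a difference of 6.27 (standard error 0.30, limma adjusted p = 8.31e-07). Cd74, which encodes the invariant chain, was at 4.45, 4.26 and 4.25 against 10.84, 10.74 and 10.02, a difference of 6.22. Intestinal epithelium can express both. Of 9 such genes 6 were called, all higher in the ileum (66.7%, against 31.5% of all genes), and 8 without F09. The median difference of the 9 was 2.47 with all arrays and 1.26 without F09. H2-Ob, which B cells express, was at 3.89, 3.53 and 3.86 against 9.24, 4.87 and 4.58, and its difference of 2.47 was not called with all arrays (adjusted p = 0.0943), while it was called without F09 at 0.97 (adjusted p = 0.00131) and without H09 at 3.30 (adjusted p = 0.0447). Of 21 dendritic cell genes 12 were higher in the ileum (57.1%, against 31.5% of all genes) and 2 in the hippocampus. The chemokine receptor gene Xcr1 of cross-presenting dendritic cells was near background in the hippocampus, at 2.99, 2.47 and 2.94, and at 4.40, 4.09 and 3.68 in the ileum. Dpp4 had a difference of 6.38 and is a brush border enzyme of enterocytes as well, while Fscn1 (-3.05) was higher in the hippocampus and is a neuronal actin bundler.

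The size of the B cell differences rested largely on F09, while the number of calls did not. Ms4a1, which encodes CD20, was at 2.15, 2.26 and 2.24 in hippocampus and 7.68, 2.32 and 2.14 in ileum, so that G09 and H09 read like the hippocampus. Its difference of 1.83 (standard error 1.35) was not called (limma adjusted p = 0.281). Cr2, a complement receptor of B cells and follicular dendritic cells, was at 2.32, 2.29 and 2.41 against 7.06, 2.32 and 2.30, and without F09 its difference of 1.56 became -0.03. F09 exceeded both other ileum arrays by over 1 for 19 of 21 B cell genes, where this held for 1.04% of all genes. With all arrays 9 of the 21 were called, all higher in the ileum (42.9%, against 31.5% of all genes). Without F09 13 were higher in the ileum and 1 in the hippocampus, with a median difference of 0.61 in place of 1.81. Without B09 the count was 5, and without A09 or H07 it was 6. Some B cell genes were read in every ileum array. Cd72 was at 2.70, 2.37 and 2.39 against 7.74, 6.65 and 6.37, a difference of 4.43 (standard error 0.33, adjusted p = 1.14e-05). Cd79a, a chain of the B cell receptor complex, was at 2.61, 2.48 and 2.67 against 9.05, 5.59 and 3.37, and its call (3.42, adjusted p = 0.0439) was lost without A09 (adjusted p = 0.0989), B09 (0.105), H07 (0.0953) or G09 (0.076), while without F09 the difference was 1.89 (adjusted p = 0.0254).

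The calls of plasma cell genes did not depend on F09, while their median difference was 2.18 with all arrays and 1.63 without F09. All 10 measured were higher in the ileum, with all arrays and with any 1 of the 6 left out. Sdc1, which encodes CD138 and is an epithelial proteoglycan too, had a difference of 4.19, and Irf4 was near background in the hippocampus, at 2.59, 3.07 and 2.36 against 5.59, 4.97 and 4.19. Of 31 T and NK cell genes, 20 were higher in the ileum (64.5%, against 31.5% of all genes) and 2 in the hippocampus. Cd3g was at 2.60, 2.79 and 2.29 against 7.18, 6.27 and 5.71, a difference of 3.82 (standard error 0.35, limma adjusted p = 3.6e-05). Cd3e was at 3.66, 2.999 and 3.62 against 6.98, 6.19 and 5.69, and Gzma, a granule protease of cytotoxic lymphocytes, at 2.81, 2.56 and 2.74 against 4.39, 5.19 and 4.16. The gut homing receptor gene Ccr9 had a difference of 2.11 and Cxcr6 of 1.84, the second near background in the hippocampus. The 2 genes higher in the hippocampus, Thy1 (-4.91) and Bcl11b (-1.78), are neuronal genes as well.

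Granulocyte and mast cell genes were near background in both tissues more often than not. Of 23 measured, 12 were near background in both tissues, 7 were called, all higher in the ileum, and the median difference was 0.18. The 7 are 30.4% of the list, close to the 31.5% of all genes that were higher in the ileum, while the 12 are 52.2% of it against 17.3% of all genes near background in both tissues. S100a8, the calprotectin subunit that fills neutrophils, read 2.75, 2.57 and 2.71 in hippocampus and 2.56, 2.47 and 2.67 in ileum. The mucosal mast cell proteases were the exception. Mcpt1 was at 2.62, 2.20 and 2.74 against 3.37, 7.68 and 5.92, and Mcpt2 at 1.66, 1.64 and 1.48 against 3.18, 7.76 and 5.80. Both were lowest in the ileum on F09, the reverse of the B cell genes. The difference of Mcpt1 (3.13, limma adjusted p = 0.0216) was not called without A09 (adjusted p = 0.0556), B09 (0.0673), H07 (0.0506) or H09 (0.0598), and that of Mcpt2 was 3.99 (adjusted p = 0.00923). Siglecf, an eosinophil gene that tuft cells share, had a difference of 1.66. Of 21 chemokine receptor genes 12 were higher in the ileum (57.1%, against 31.5% of all genes), among them Ccr1 at 2.07, 2.09 and 2.02 against 3.45, 4.39 and 3.62. Ackr1 (-2.35) and Ackr3 (-0.58), atypical receptors that bind chemokines without classical signalling, were higher in the hippocampus. Cxcr4, at 5.86, 6.00 and 5.77 against 8.46, 5.97 and 5.40, was not called (0.73, adjusted p = 0.405) and its difference was -0.19 without F09.

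**Figure D4:**
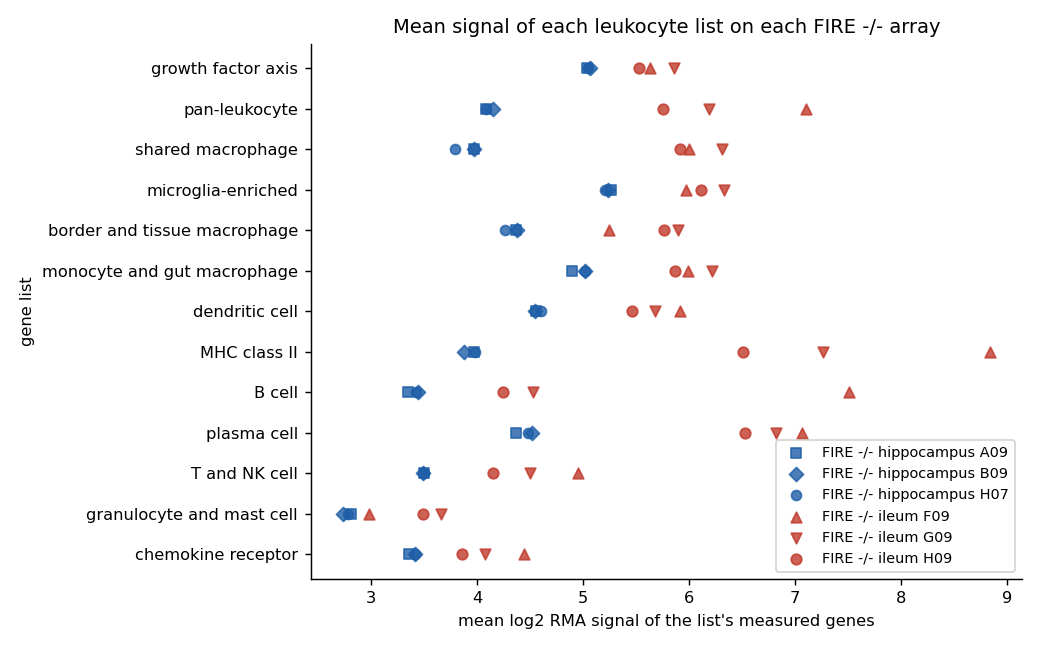
Mean log2 RMA signal of the measured genes of each leukocyte list on each of the 6 FIRE -/- arrays. Within each row the hippocampus arrays lie close together and below the ileum arrays, and F09 lies at 7.50 for the B cell list where G09 is at 4.53 and H09 at 4.24; rows are not to be compared with each other, since their probes differ.

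Altogether 20 leukocyte-list genes were higher in the FIRE -/- hippocampus, and all 20 were above background there and in the ileum. Beside those named, they were Vcan (-1.41) and Nr4a1 (-2.64), an extracellular matrix proteoglycan and an immediate early transcription factor. Near background in both tissues were 26 of the 306 genes. Of these 26, 7 were nonetheless called higher in the ileum by the fit, with differences between values that lay within the range of the receptor clusters.

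The tissue difference, ileum minus hippocampus, was more positive in FIRE -/- than in FIRE +/+ mice for a small group of genes, most of them from the shared macrophage and microglia-enriched lists. The interaction of tissue and genotype, fitted on all 12 arrays, was called for 19 clusters, 0.0895% of those tested, and 18 of the 19 were those of leukocyte-list genes. The lists hold 306 of the 18820 genes. They were chosen with earlier results of these data known, so the 18 are not independent support. All 19 differences were more positive in FIRE -/- mice, and for genes such as Trem2 and Cx3cr1 the size of the difference was not larger than in FIRE +/+ mice. For all 19 the hippocampus mean was lower in FIRE -/- than in FIRE +/+ mice, such as 3.12 against 7.14 for Ctss and 4.31 against 6.58 for Trem2. The ileum means were 8.73 against 8.86 for Ctss and 4.43 in both genotypes for Trem2. They were lower in FIRE -/- mice for Csf1r (6.94 against 7.66) and higher for Slc2a5 (9.46 against 8.56). For Csf1r the difference was 3.30 in FIRE -/- and -0.61 in FIRE +/+ mice, an interaction of 3.92 (standard error 0.36, limma adjusted p = 0.000758). For Ctss it was 5.61 and 1.72, and for Selplg, the ligand of P-selectin, 3.17 and -1.35, an interaction of 4.53 whose size depends on the floor of its probes, since its FIRE -/- hippocampus arrays lay on both sides of the limit. Trem2 differed by 0.12 in FIRE -/- and by -2.15 in FIRE +/+ mice, so that the gene that did not separate the tissues without the enhancer was higher in the hippocampus with it. Siglech went from -2.03 in FIRE +/+ to 0.87 in FIRE -/- mice, Cx3cr1 from -1.78 to 1.32 and P2ry13 from -1.54 to 1.96. The same contrast in FIRE +/+ mice called 131 leukocyte genes higher in the ileum and 32 higher in the hippocampus, with a median difference of 0.79, where 29.4% and 27.1% of all clusters were so called. Of the 211 genes called higher in the ileum in FIRE -/- mice, 126 were also called in FIRE +/+ mice. Lymphocyte genes gave no interaction call: the median difference of the T and NK cell list was 1.02 in FIRE -/- and 0.77 in FIRE +/+ mice, and of the plasma cell list 2.18 and 1.90. The count of 18 was 11 without B09, without the FIRE +/+ hippocampus array E07 or without the FIRE +/+ ileum array E09, and 33 without D09, a FIRE +/+ ileum array that is rich in B cell transcripts like F09.

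**Figure D5:**
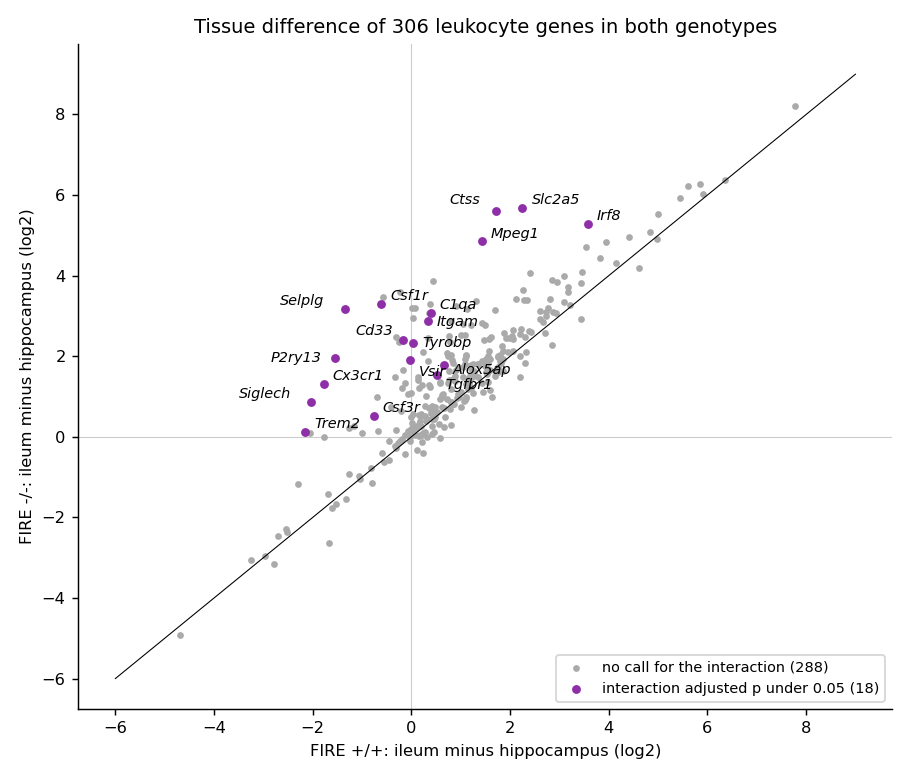
Ileum minus hippocampus difference (log2) of the 306 leukocyte genes in FIRE +/+ mice (horizontal axis) and in FIRE -/- mice (vertical axis), with the line of equal difference. The 18 genes called for the interaction all lie above the line, from Trem2 at -2.15 and 0.12 to Irf8 at 3.58 and 5.29.

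Outside the leukocyte lists, large signal differences in favour of the ileum included those of Clca1, a secreted goblet cell protein (9.33), Muc3, a membrane mucin (9.30), and Fabp2, the intestinal fatty acid binding protein (9.21). Clca1 and Muc3 were near background in the hippocampus, and against the limits there they were at least 434-fold and at least 373-fold higher in the ileum. Large differences in favour of the hippocampus included those of Slc17a7, the vesicular glutamate transporter VGLUT1 (-7.97), and Ddn, the postsynaptic protein dendrin (-7.95). Fabp2 read 2.79 and 2.49 on A09 and B09 but 3.94 on H07, and the part of such traces in the leukocyte values was not tested; without H07, 189 leukocyte genes were higher in the ileum and 20 in the hippocampus.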

How the data were processed

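RNA of 12 samples was hybridised to Affymetrix Mouse Gene ST arrays, and the authors normalised them with RMA (robust multi-array average), which corrects background, quantile-normalises and summarises probes. The deposited values are log2 signals for 35556 transcript clusters. The RMA software version and genome build are not given in the sources used here. Quantile normalisation makes the arrays' distributions equal, so differences between tissues as unlike as these are relative. Clusters with several symbols (1881) or none (12457) were left out, and a gene with several clusters was read by the one with the highest mean. The 6 FIRE -/- arrays were fitted with limma 3.58.1 in R 4.3.3 (lmFit, eBayes), with Benjamini-Hochberg adjustment over 21218 clusters, and the interaction was fitted on all 12 arrays. The fits were tested on simulated data. Nothing states whether arrays came from separate mice, so p-values measure the spread between these arrays, whose number limits the precision.

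The gene lists, the comparison and the classes were chosen with earlier results of these data known. Genes were named by rule: Csf1r and the study's gut macrophage markers, the largest differences of each list among genes near background in hippocampus and above it in ileum, the largest in favour of the hippocampus, the highest that were not called, those on both sides of the limit in the ileum, the largest differences of all, and the 10 smallest interaction p-values. Other genes, such as Ptprc, Tmem119, H2-Aa and Dpp4, were chosen after their values were seen. The alternatives were other limits, filters, weights, covariates and left-out arrays. The other 28 listed genes were not analysed here.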

Additional observations from a re-analysis of the deposited data

Results flagged for a closer look

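For 19 genes the tissue difference, ileum minus hippocampus, differed between the genotypes by the limma interaction test on all 12 arrays. The values that follow are the log2 difference in FIRE -/- mice minus that in FIRE +/+ mice. They were those of Selplg (4.53), Csf1r (3.92), Ctss (3.89), P2ry13 (3.50), Slc2a5 (3.44), Mpeg1 (3.42) and Cx3cr1 (3.10). Others were those of Siglech (2.89), C1qa (2.69), Cd33 (2.57), Itgam (2.55), Tyrobp (2.29) and Trem2 (2.27). The list also held Vsir (1.94), Kcnk6 (1.76), Irf8 (1.71), Csf3r (1.29), Alox5ap (1.12) and Tgfbr1 (1.03). Where the FIRE -/- hippocampus lay at or around the background limit, as for Selplg, Ctss, Mpeg1 and Itgam, the size depends on the floor of the gene's probes. Kcnk6, a potassium channel gene, is the 1 gene of the 19 outside the leukocyte lists. In the hippocampus its mean was 4.34 in FIRE -/- and 6.17 in FIRE +/+ mice, and in the ileum 8.84 and 8.90. At an unadjusted p under 0.05 there were 894 clusters. Groups of 3 arrays are too small for a test of single outlying arrays.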

How the results depend on the processing

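Leaving out 1 array at a time gave 5974 to 6891 clusters higher in the ileum, 5819 to 6237 higher in the hippocampus, 188 to 221 leukocyte genes higher in the ileum, 19 to 24 higher in the hippocampus, a Csf1r difference of 3.01 to 3.56, 39 to 46 genes near background in the hippocampus and above it in the ileum, and 11 to 33 leukocyte genes with an interaction call. The range of 39 to 46 could not fall below the 38 of all arrays, since every array of a group must pass. A filter on dim clusters left 4366 clusters higher in the ileum, 4175 higher in the hippocampus and 53 leukocyte genes higher in the ileum, since it keeps only clusters whose mean over the arrays exceeds the median of all clusters. Csf1r has no value under it. A test against a log2 difference of 1 (treat) called 2559 and 2984 clusters and 113 and 10 leukocyte genes. The near and above class held 19 genes at the 90th percentile, 78 at the 99th, 73 at the median of all clusters and 76 by group means. The count of interaction genes was 7 by the methods' analysis of variance, 31 with array weights, 11 with the array code as a block and 51 without D09 and F09 together, chosen after seeing the data. Over the 104 named genes other than Csf1r and 18 settings, 1742 of 1812 differences kept direction and call, 54 lost the call, 6 gained it and 10 turned sign. Those that turned were P2ry12 (0.0776 with array weights, -0.2774 to 0.2170 with 1 array left out, 0.24 without B09 and F09), Cr2 (-0.0291 to 2.3526 with 1 array left out, the lowest without F09, and -0.0554 without B09 and F09) and Cxcr4 (-0.19 without F09 to 1.3371, and -0.13 without B09 and F09). The causes of the other changes were not tested. No paired analysis was possible because the replicate numbers follow accession order and nothing ties hippocampus and ileum arrays to the same mice. With 3 arrays a group an exact permutation test of 1 gene cannot go below p = 0.1.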

Other observations

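Among the tissue lists, 8 of 9 astrocyte genes were higher in the FIRE -/- hippocampus, and of 7 endothelial genes 3 were higher in the ileum, 1 in the hippocampus and 3 were not called. All 7 choroid plexus genes were highest on B09 among the hippocampus arrays, with a list mean of 8.97 there against 8.50 on A09 and 7.69 on H07. B09 was the highest of these arrays for 6390 of all 18820 genes. Actg2, a smooth muscle actin, was at 6.79 on A09 against 4.73 on B09 and 5.06 on H07. These values differ between arrays of 1 group, and their part in the leukocyte differences was not tested.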
